A study of Mus musculus with 12 samples.

Results

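The 10 genes described here encode the proteins that neutrophils store for killing microbes, namely Mpo, Elane, Prtn3 and Ctsg of the early granules, and Camp, Ltf, Ngp, Mmp8, S100a8 and S100a9 of the later stages. They were taken by symbol from the deposited table, which held all 10 members among its 46095 genes. The table covers hepatocellular carcinomas that diethylnitrosamine (DEN), a carcinogen activated by hepatocytes, had induced in mouse liver. Of the 12 libraries, 7 come from the Pck1-null genotype (KO) and 5 from wild type (WT), and the DEN exposure is common to all 12. Pck1 encodes the cytosolic enzyme that makes phosphoenolpyruvate for glucose synthesis. The labels name the allele only as Pck1-null, and the sources used here do not give strain, sex, age, Cre driver or dose of DEN. The comparison asks how the tumour transcriptome of Pck1-null mice differs from that of wild-type mice.

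Neutrophils fill their granules in sequence while they mature in the bone marrow. Promyelocytes transcribe the genes of the early, azurophil granules, and myelocytes and later cells switch to the genes of the secondary and tertiary granules. Mature neutrophils in blood keep the proteins but have shut off most of the early transcripts, so messenger RNA of Mpo or Elane is a marker of immature cells. S100a8 and S100a9 are not granule cargo in the strict sense: they are calcium-binding proteins that fill the cytosol of late precursors and mature cells.

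Total counts lay between 17462102 and 46747125 per library. The targeted gene was checked first. Pck1 had 111 to 1167 CPM in KO and 1063 to 5822 CPM in WT libraries, where CPM is the read count scaled to a TMM-normalised library of 1000000 reads. KO replicate 3 held the 1167 CPM and lay above WT replicate 4, so the library labelled KO replicate 3 overlaps WT in Pck1. The fold changes and calls of the 10 genes are therefore given with and without it. So are the medians of the further granule, mature neutrophil, platelet and erythroid lists. The other lists are given over all 12 libraries only. The tissue label was checked with 9 hepatocyte genes, among them albumin, whose summed level ran from 86816 to 221633 CPM in KO and from 84388 to 274356 CPM in WT.

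Granule transcripts were abundant in 3 of the 12 libraries and scarce in the rest. Summed over the 10 genes, the level was 1706 CPM in KO replicate 3, 409.8 CPM in KO replicate 6 and 260.3 CPM in KO replicate 4. The other 4 KO libraries held 31.4 to 52.2 CPM and the WT libraries 30.7 to 82.4 CPM. For 9 of the 10 genes, all except Prtn3, KO replicates 3, 6 and 4 were the 3 highest of the 12 libraries, in that order. The same 3 libraries were the highest for 0.866% of the 14666 genes tested. KO replicate 3 was the highest library for all 10 members and for 8.99% of the genes tested. In bulk tissue, more cells of a type and more RNA per cell cannot be told apart.

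**Figure D1:**
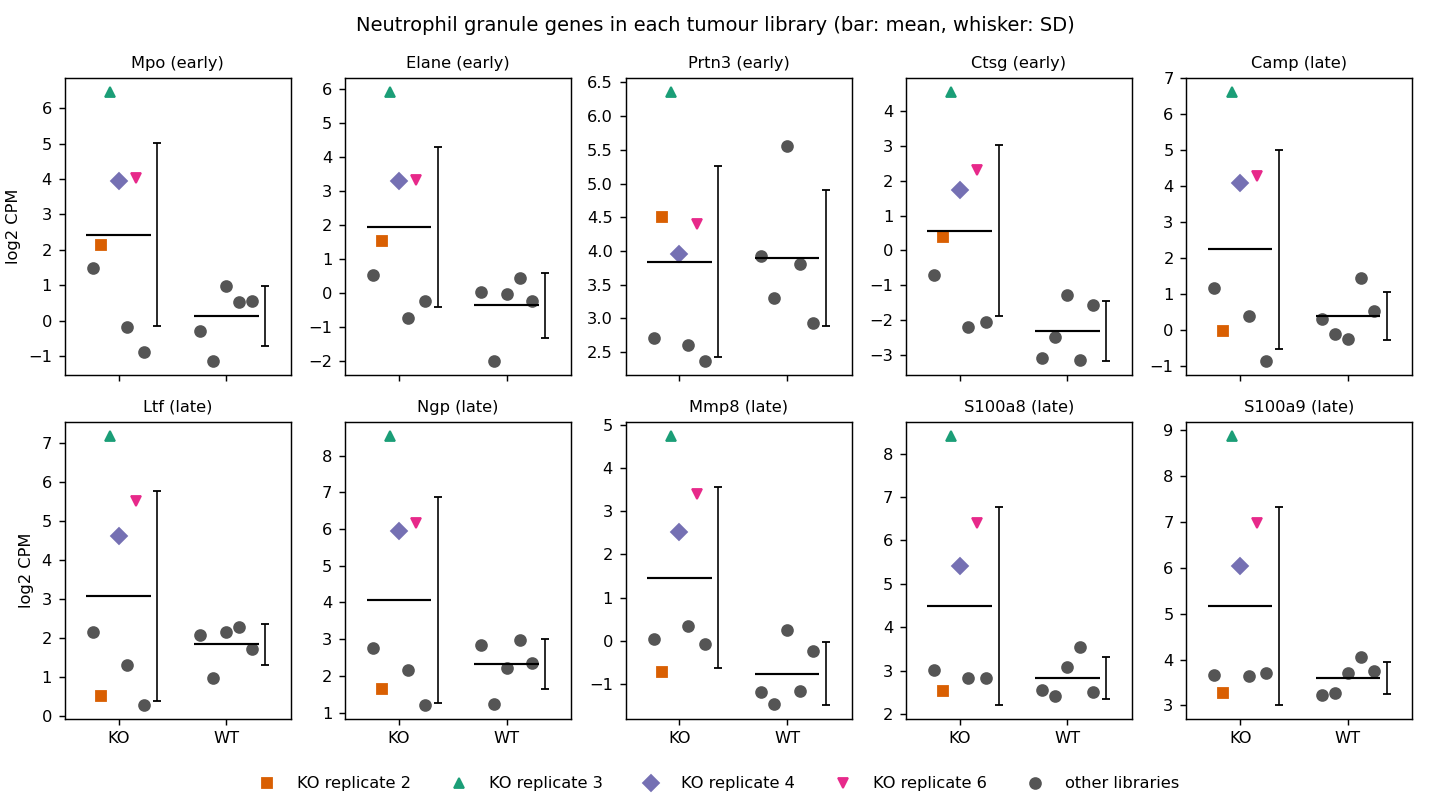
Level of each of the 10 genes in each library in log2 CPM (prior count of 2), with KO left and WT right; each point is 1 library, the bar is the group mean and the whisker the SD (n = 7 KO, n = 5 WT), and the vertical axes differ between panels. KO replicate 3 is the highest point in every panel, and KO replicates 4 and 6 follow it in all panels except Prtn3.

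The early granule genes encode myeloperoxidase and a set of serine proteases. Mpo, the peroxidase that makes hypochlorous acid, had 0.482 CPM in its lowest, 4.31 CPM in its median and 87.9 CPM in its highest KO library. In the WT libraries Mpo had 0.746, 0.388, 1.90, 1.38 and 1.41 CPM. KO replicates 3, 6, 4, 2 and 1 lay above every WT library, which at least 5 KO libraries did for 6.44% of all genes tested, at least 4 for 13.6% and at least 3 for 25%. KO replicates 5 and 7 lay within the WT range. The fitted log2 fold change of Mpo was 3.99 ± 1.24 (SE, edgeR quasi-likelihood, adjusted p = 0.218), and the mean of log2 CPM over the 7 KO libraries was 2.43 ± 2.57 (SD), against 0.12 ± 0.85 (SD) over the 5 WT libraries.

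Elane, the neutrophil elastase, was high in the same libraries as Mpo. Its lowest, median and highest KO libraries had 0.532, 2.80 and 60.5 CPM, and the WT libraries had 0.960, 0.183, 0.913, 1.29 and 0.780 CPM. Again KO replicates 1, 2, 3, 4 and 6 lay above all WT libraries, and the log2 fold change was 3.91 ± 1.23 (SE, edgeR, adjusted p = 0.220). The ratio of Mpo to Elane counts, which are not scaled to length, was 1.45 to 1.65 in KO replicates 3, 4 and 6, 0.611 to 2 over all KO libraries and 0.778 to 2.12 in WT.

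Ctsg, the cathepsin G protease, had the lowest counts of the early genes in every library. In KO it had 482 counts in replicate 3, 224 in replicate 6, 181 in replicate 4, 23 in replicate 2, 13 in replicate 1, 7 in replicate 5 and 4 in replicate 7. In the WT libraries it had 1, 5, 5, 1 and 11 counts, or 0.0477 to 0.351 CPM. KO replicates 3, 6, 4, 2 and 1 lay above all WT libraries in CPM. Its log2 fold change was 4.81 ± 1.37 (SE, edgeR, adjusted p = 0.209). Ctsg passed the filter on low counts through 5 KO libraries and 0 WT libraries, so that it could be tested at all depended on its KO level.

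Prtn3, the proteinase 3 that lies next to Elane, did not share this pattern. It had 5.08, 15.5 and 82.1 CPM in its lowest, median and highest KO library, and 15.1, 9.76, 46.9, 13.9 and 7.54 CPM in the WT libraries. Only KO replicate 3 lay above all WT libraries, and WT replicate 3 was the second highest of the 12. The groups overlapped, with a log2 fold change of 0.29 ± 0.72 (SE, edgeR, adjusted p = 0.876) and a mean of log2 CPM of 3.84 ± 1.42 (SD) over the 7 KO libraries, against 3.90 ± 1.01 (SD) over the 5 WT libraries.

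Relative to its neighbour, Prtn3 had, as counts not scaled to length, 1.36 to 2.13 times those of Elane in KO replicates 3, 4 and 6, 4.67 to 11.3 times in the other KO libraries and 9.68 to 53.5 times in WT. Prtn3 counts thus did not drop to the near-zero level of Elane where the other early genes were low. In GENCODE M21 (GRCm38) Prtn3 spans chr10:79874476-79883174 on the plus strand, and the first exon of a noncoding transcript overlaps the opposite-strand gene Plppr3 by 159 bases, while the RefSeq model starts at 79879667. Which model the counts follow is not given in the sources used here. Plppr3 had at most 6.32 CPM in any library, in KO replicate 5, and 0.351 CPM in WT replicate 3 where Prtn3 had 46.9 CPM. The part of such reads in the Prtn3 counts was not tested.

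**Figure D2:**
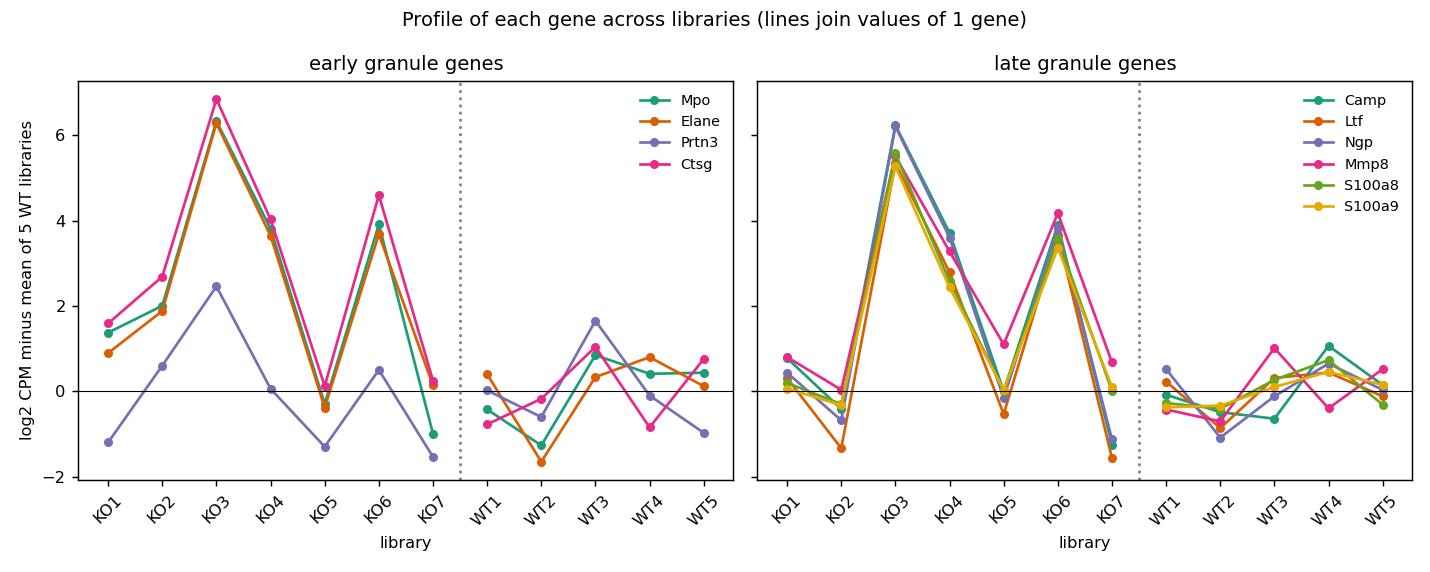
Level of each early (left) and late (right) gene across the 7 KO and 5 WT libraries, as log2 CPM minus the mean of the 5 WT libraries; lines join the values of 1 gene. All genes peak in KO replicate 3, Prtn3 stays near 0 in KO replicates 4 and 6, and in KO replicate 2 the early genes lie above 0 while 5 of the 6 late genes lie below it.

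The late genes had their 3 highest levels in KO replicates 3, 6 and 4. Ngp, the neutrophilic granule protein, a relative of the cathelicidins, had 2.24, 6.74 and 372 CPM in its lowest, median and highest KO library, against 7.14, 2.30, 4.57, 7.82 and 5.08 CPM in the WT libraries. Its log2 fold change was 3.79 ± 1.32 (SE, edgeR, adjusted p = 0.248). Outside those 3 libraries, the highest KO value of 6.74 CPM lay within the WT range.

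Camp, the precursor of the antimicrobial cathelicidin peptide, had 0.482, 2.18 and 98.8 CPM in its lowest, median and highest KO library, against 1.17, 0.867, 0.773, 2.67 and 1.38 CPM in WT. Ltf, the iron-binding lactoferrin, had 1.14, 4.35 and 145 CPM in KO, against 4.11, 1.89, 4.36, 4.77 and 3.22 CPM in WT. For Camp and Ltf, 3 of 7 KO libraries lay above all WT libraries, and 1 and 2 KO libraries lay below all of them. The log2 fold changes were 3.86 ± 1.32 for Camp and 3.13 ± 1.198 for Ltf (SE, edgeR, adjusted p = 0.246 and 0.274).

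Mmp8, the neutrophil collagenase, had 0.538, 1.197 and 26.8 CPM in its lowest, median and highest KO library, against 0.373, 0.297, 1.12, 0.382 and 0.780 CPM in WT. KO replicate 5, at 1.197 CPM and 54 counts, also lay above all WT libraries, so 4 of 7 KO libraries did. Its 95% counting interval of 0.899 to 1.56 CPM overlapped the 0.643 to 1.83 CPM of WT replicate 3, which had 16 counts. Its log2 fold change was 3.51 ± 1.07 (SE, edgeR, adjusted p = 0.217).

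S100a8 and S100a9, which pair to form calprotectin, had the highest CPM per kilobase of the late genes in KO replicate 3. S100a9 had 9.64, 13.02 and 471 CPM in its lowest, median and highest KO library, against 9.33, 9.58, 12.998, 16.6 and 13.5 CPM in WT. S100a8 had 5.71, 8.08 and 339 CPM in KO, against 5.81, 5.29, 8.50, 11.7 and 5.66 CPM in WT. In each, 3 of 7 KO libraries lay above all WT libraries, and the log2 fold changes were 3.03 ± 1.04 for S100a9 and 3.26 ± 1.12 for S100a8 (SE, edgeR, adjusted p = 0.246 for both). The pair kept a ratio of S100a9 to S100a8 counts of 1.39 to 1.83 in KO and 1.42 to 2.38 in WT.

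The ratios of counts given above depend on gene length, so the order of levels was taken per kilobase of exon in GENCODE M21. On the scale of CPM per kilobase, S100a9 was the highest of the 10 genes in every library except WT replicate 3, where Prtn3 was. In KO replicate 3 the order was S100a9 (902), S100a8 (489), Ngp (304), Camp (130), Elane (61.4), Prtn3 (47.4), Ltf (42.1), Mpo (25.7), Ctsg (22.5) and Mmp8 (11.04). Mmp8 was the lowest in KO replicates 1, 2, 3, 4 and 6, Mpo in KO replicate 7, and Ctsg in all WT libraries and KO replicate 5. Elane lay above Prtn3 on this scale in KO replicates 3 and 4, and below it in the other 10 libraries. Ctsg in WT rests on at most 11 counts.

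In edgeR's quasi-likelihood test, adjusted over all genes tested at 0.05, 0 of 10 members were called, beside 0% of the 14666 genes. All 10 log2 fold changes were positive, as were those of 53.7% of the genes. At an unadjusted p under 0.05, 9 of 10 members were higher in KO, or 8 of 9 without Ctsg, beside 7.25% of all genes tested, and 7.44% of the genes were lower at that p. The median log2 fold change was 3.65 for the 10 members and 3.51 without Ctsg, beside 0.03 for all genes tested. DESeq2 called 9 of 10 members, all except Prtn3, or 8 of 9 without Ctsg, with an adjusted p of 0.0361 for Ltf at the highest, where it called 1.7% of all genes as higher in KO. Without KO replicate 3, a setting added after the data were seen, DESeq2 called 0 of the 9 members tested, with adjusted p from 0.0646 for Mmp8 to 0.676 for Prtn3, and 0.898% of all genes. Limma-voom called 0 of 10, with or without sample weights.

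The exact two-sided permutation test of mean log2 CPM, over 792 regroupings of the libraries, gave p = 0.0467 for Mmp8 (4 of 7 KO libraries above all WT libraries). The exact permutation p = 0.0290 for Ctsg (5 of 7) is conditioned on its KO level through the filter. For the other 8 members the exact permutation test ran from p = 0.0682 for Elane to 0.943 for Prtn3. Adjusted over all genes tested, the exact permutation p was 0.354 for Mmp8, and 0 of 10 members were called. Without KO replicate 3 the unadjusted exact permutation p of Mmp8 was 0.0541, the lowest of the 9 members tested. Without that library, 825 of 14591 genes had an unadjusted p under 0.05 by the same test and a higher mean in KO. Over all 12 libraries, 6.64% of all genes tested did. The mean differences of log2 CPM, 2.31 for Mpo and 1.24 for Ltf for instance, average logarithms, whereas the fitted fold changes compare mean counts, and were smaller.

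Without KO replicate 3 the log2 fold changes of the 8 members other than Prtn3 and Ctsg ran from 1.68 for S100a9 to 2.53 for Mpo, and that of Prtn3 was −0.54. There 7 of 9 members tested were higher at an unadjusted p under 0.05, beside 6.07% of all genes, and 0 were called. Ctsg was not tested there, because it no longer passed the filter. KO replicate 3 belongs to the 7 libraries with under 30000000 counts and KO replicates 4 and 6 to the 5 deeper ones. Xist, transcribed from the inactive X of females, was at 155 and 118 CPM in KO replicates 3 and 6 and at 0.0357 CPM in KO replicate 4. Within the shallower and the deeper libraries, Mpo differed by 4.15 and 3.59, Ngp by 3.87 and 3.63 and S100a9 by 3.28 and 2.55 on the log2 scale. The high Xist class (above 10 CPM) held KO replicates 1, 2, 3, 5 and 6 and WT replicate 4, so it was unbalanced between the genotypes. With the Xist class as a covariate Mpo, Ngp and S100a9 differed by 3.26, 3.03 and 2.20, and Prtn3 by −0.29. In that fit 5 of 10 members were higher at an unadjusted p under 0.05 in edgeR's test, as were 785 of 14666 genes, and 0 were called. Genotype and Xist class cannot be fully told apart here.

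**Figure D3:**
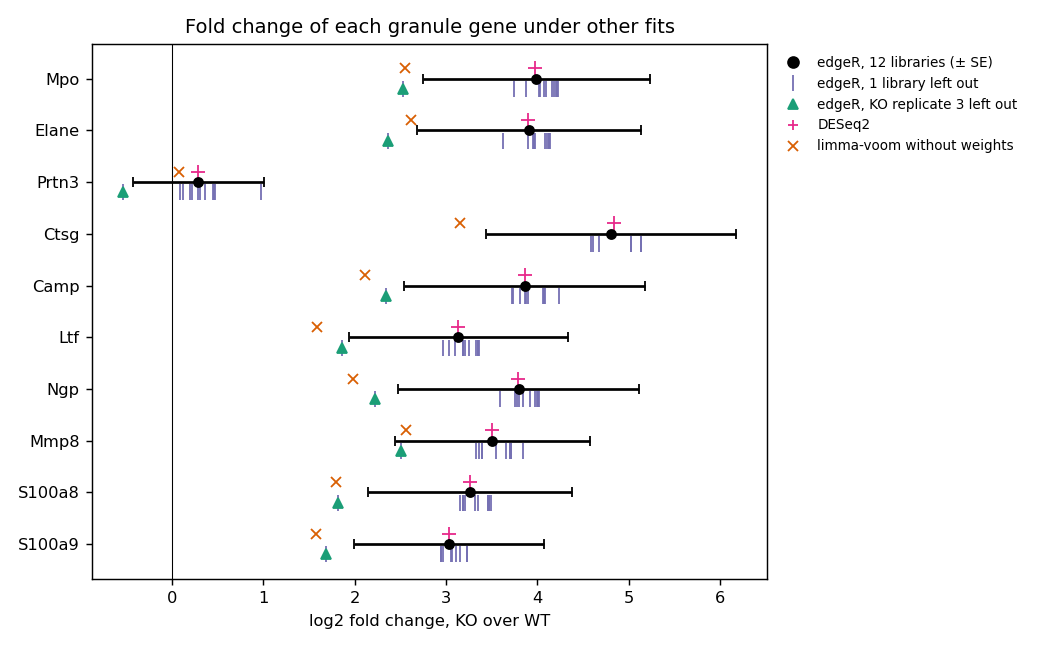
Log2 fold change of KO over WT for each gene: edgeR over 12 libraries with its SE (circle), with 1 library left out (ticks), without KO replicate 3 (triangle), DESeq2 (plus) and limma-voom without weights (cross). For 9 genes the value without KO replicate 3 is the lowest of the leave-out values, Ctsg has no such value, and Prtn3 lies nearest 0.

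With Prtn3 set aside, the share of early genes in the granule gene counts stood apart in KO replicate 2. With Prtn3 included, WT replicate 3 lay slightly above KO replicate 2. Over all 10 genes, the early genes made up 59.3% of the granule gene counts in KO replicate 2 (95% exact binomial interval 56.2 to 62.5%), against 12.7 to 24.1% in the other KO libraries and 25.3 to 60.8% in WT. These shares are dominated by Prtn3 where the other genes are low, and Prtn3 was therefore set aside after the values were seen. Mpo, Elane and Ctsg then made up 28.2% in KO replicate 2 (24.5 to 32.2%), 11.8% in KO replicate 1 (9.83 to 14.0%), 11.5% in KO replicate 4, 10.6% in KO replicate 3, 8.00% in KO replicate 6, 5.50% in KO replicate 7 and 4.97% in KO replicate 5. In WT they made up 5.92, 3.27, 8.91, 5.82 and 7.69%. The intervals cover counting error only. Scaled to length, the same share was 14.6% in KO replicate 2, 2.25 to 6.06% in the other KO libraries and 1.36 to 4.01% in WT.

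In KO replicate 2 the 3 genes summed to 8.35 CPM, above the 0.684 to 3.16 CPM of the WT libraries, while the 6 late genes summed to 21.2 CPM, near the lowest WT library at 20.2 CPM. KO replicate 1 had 4.69 CPM of the 3 early and 35.0 CPM of the late genes. Mpo, Elane and Ctsg thus had 5 of 7 KO libraries above all WT libraries, and Prtn3 had 1. Of the 6 late genes, 5 had 3. Ctsg passed the filter through KO libraries alone. For Elane and Ctsg, the counting interval of KO replicate 1 overlapped that of a WT library. Elane had 1.38 CPM there (95% interval 0.951 to 1.94), against 1.29 CPM in WT replicate 4 (0.849 to 1.87). Ctsg had 0.544 CPM (0.290 to 0.930), against 0.351 CPM in WT replicate 3 (0.114 to 0.820). Ms4a3 and Fcnb, further genes of neutrophil precursors that were named after their values were seen, had 0 and 1 counts in KO replicate 2. Their counts in the other libraries are not given here, so these values do not place KO replicate 2 among them. Prss57, a further granule gene also named after its values were seen, had 4 of 7 KO libraries above all WT libraries. Its log2 fold change was 2.59 ± 1.29 (SE, edgeR, adjusted p = 0.375).

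**Figure D4:**
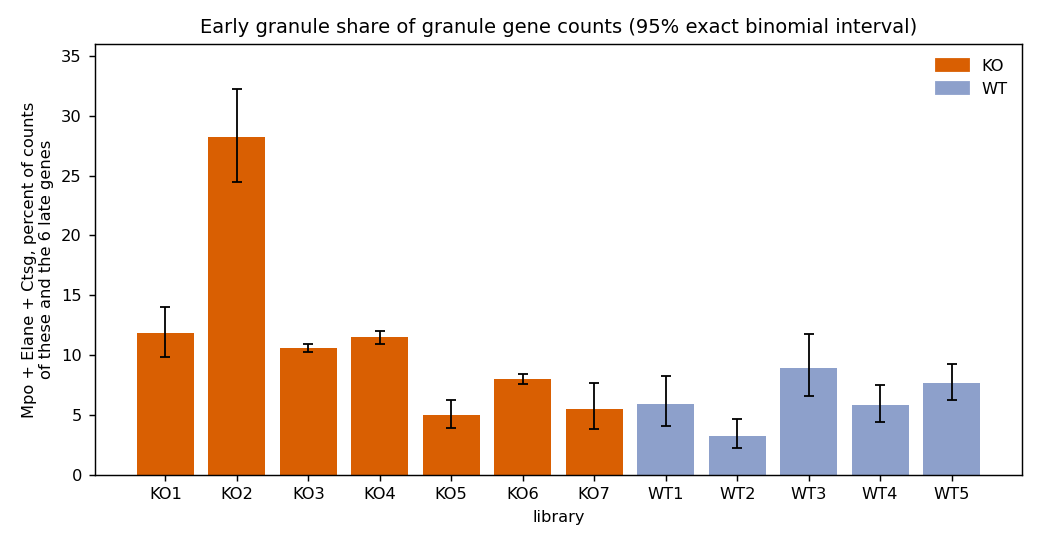
Counts of Mpo, Elane and Ctsg as a percentage of the counts of these 3 and the 6 late genes in each library, KO left of WT; bars are libraries, and whiskers are 95% exact binomial intervals that cover counting error only. On this scale of counts KO replicate 2 stands at 28.2%, all other libraries between 3.27 and 11.8%.

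Promoters of the 10 genes were read from RefSeq (GRCm38.p6), from 250 bases before to 50 bases after the annotated start, and all 10 matched by symbol. Shown are the neighbours Elane (chr10:79886062-79886361, plus strand) and Prtn3 (chr10:79879417-79879716, plus strand), which differed in their profiles, Mpo (chr11:87793534-87793833, plus strand), and the late genes Ngp (chr9:110419558-110419857, plus strand) and S100a8 (chr3:90668821-90669120, plus strand). Capitals mark, on either strand, the letters TTNCNNAA, a core of the sites of C/EBP factors, and GAGGAA, a core of the sites of PU.1. Both factors drive granule genes in myeloid cells.
Mpo: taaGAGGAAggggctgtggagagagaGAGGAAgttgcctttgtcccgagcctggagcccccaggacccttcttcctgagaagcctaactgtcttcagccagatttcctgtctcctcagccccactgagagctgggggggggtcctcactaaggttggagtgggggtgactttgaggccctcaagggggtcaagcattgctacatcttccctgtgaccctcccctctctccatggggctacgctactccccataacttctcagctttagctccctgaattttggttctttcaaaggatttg
Elane: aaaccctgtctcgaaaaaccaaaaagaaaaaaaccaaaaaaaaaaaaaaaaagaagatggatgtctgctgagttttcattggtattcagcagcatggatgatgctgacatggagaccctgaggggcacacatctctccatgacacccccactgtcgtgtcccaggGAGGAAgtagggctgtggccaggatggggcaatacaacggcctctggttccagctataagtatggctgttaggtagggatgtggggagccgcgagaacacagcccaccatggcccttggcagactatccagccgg
Prtn3: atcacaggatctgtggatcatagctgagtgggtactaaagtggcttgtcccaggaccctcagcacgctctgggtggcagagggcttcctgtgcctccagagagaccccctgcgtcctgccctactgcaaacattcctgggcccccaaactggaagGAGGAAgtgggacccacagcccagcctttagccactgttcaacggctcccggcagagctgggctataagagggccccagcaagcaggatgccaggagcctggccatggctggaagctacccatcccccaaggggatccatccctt
Ngp: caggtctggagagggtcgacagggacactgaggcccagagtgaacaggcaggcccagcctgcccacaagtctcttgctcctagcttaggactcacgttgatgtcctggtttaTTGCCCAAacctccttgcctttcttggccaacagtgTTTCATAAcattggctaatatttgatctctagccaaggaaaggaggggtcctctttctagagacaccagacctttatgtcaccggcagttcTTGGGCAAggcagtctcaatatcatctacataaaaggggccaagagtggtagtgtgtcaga
S100a8: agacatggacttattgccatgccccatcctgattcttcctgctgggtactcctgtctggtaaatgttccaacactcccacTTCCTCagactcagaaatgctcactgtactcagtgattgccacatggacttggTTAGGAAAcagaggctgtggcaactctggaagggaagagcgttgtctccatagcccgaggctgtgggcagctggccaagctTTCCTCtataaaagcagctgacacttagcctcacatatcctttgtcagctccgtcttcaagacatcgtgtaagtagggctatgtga

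GAGGAA was found in 4 of 4 early and 3 of 6 late windows (Ltf, Mmp8 and S100a8), and in 28.3% of all 32851 windows of the same length. TTNCNNAA was found in 0 of 4 early and 5 of 6 late windows (all except Camp), and in 40.7% of all windows. AACTG, a core of Myb sites, was found in 3 early and 4 late windows and in 44.8% of all, TGTGGT, a core of RUNX sites, in 1 early and 2 late windows and in 16.8% of all, and TATAAA in 1 early and 3 late windows and in 13.6% of all. Both strands were searched, and matches of different letters may overlap. In Elane the GAGGAA lies 85 bases and in Prtn3 95 bases before the start, so the window of Prtn3 holds the same letters at a similar distance although its counts differed. A match is a description of the sequence and shows no binding.

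The members lie in a few places of the genome. Prtn3 and Elane are 3072 bases apart on chromosome 10, S100a8 and S100a9 22596 bases apart on chromosome 3, and Camp, Ngp and Ltf follow each other on chromosome 9 with gaps of 570129 and 596258 bases. Mmp8 (chr9:7558456-7568485), Mpo (chr11:87793581-87804413) and Ctsg (chr14:56099881-56102574) lie apart from these.

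Among genes outside the members, likeness was measured as Pearson's r of log2 CPM over the 12 libraries, among which KO replicates 3, 4 and 6 stand apart, and is given as a description. Most like the mean of the late genes were Cd177, a neutrophil surface glycoprotein (r = 0.97, and 0.95 without KO replicate 3), Retnlg, a resistin-like secreted protein of neutrophils (0.97 and 0.94), Mmp9, the gelatinase of tertiary granules (0.96 and 0.92), and Slc2a3, a glucose transporter of blood cells (0.95 and 0.90). Next came F13a1, Ifitm6, Tal1 and Trem3, with r from 0.94 to 0.89. Most like the mean of the early genes were Mfsd2b (0.93, and 0.86 without KO replicate 3), the sphingosine phosphate exporter of red cells and platelets, and Trem3 (0.93 and 0.85). Mmp9, Cd177, Retnlg, Tubb1, Slc2a3 and Pglyrp1 followed, with r from 0.89 to 0.86. Cd177 had 57.2, 21.8 and 8.47 CPM in KO replicates 3, 6 and 4, against 0.853 to 2.21 CPM in WT, and Mfsd2b had 11.3, 1.57 and 3.68 CPM, against 0.143 to 1.19 CPM in WT.

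Other neutrophil genes were described from lists. Of 20 further granule genes, 12 were tested, 9 had a positive log2 fold change, 4 had an unadjusted p under 0.05 and 0 were called, with a median of 1.23 beside 0.03 for all genes tested. Of all genes tested, 53.7% were positive and 7.25% were higher at that p in edgeR's test. Without KO replicate 3 the median of the 10 still tested was 0.51, and 1 had an unadjusted p under 0.05, Cd177 at 2.09 ± 0.94 (SE). The 4 were Cd177 (3.28 ± 1.18), Pglyrp1, a peptidoglycan-binding antimicrobial protein (1.84 ± 0.72), Mmp9 (2.05 ± 0.82) and Chil3, a chitinase-like protein (2.38 ± 0.99, SE). Lcn2, Lyz2 and Arg1 of this list are also transcribed by hepatocytes or macrophages. The summed level of the list ran from 585 to 5333 CPM in KO and from 2254 to 4967 CPM in WT.

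Of 22 genes of mature neutrophils, 16 were tested, 13 were positive with a median of 0.43, 3 had an unadjusted p under 0.05 and 0 were called. The 3 were Il1r2, the decoy receptor of interleukin 1 (2.27 ± 0.88), Retnlg (2.44 ± 0.97) and Trem1, an activating receptor (1.61 ± 0.70, SE). By the same test, 53.7% of all genes tested were positive and 7.25% were higher at that p. Leaving out KO replicate 3, the median of the 16 was 0.29, and 0 had an unadjusted p under 0.05. KO replicates 3, 4 and 6 were the 3 highest libraries for 6 of the 16 and for 4 of the 12 granule genes tested, beside 0.866% of all genes tested. The mature neutrophil list summed to 304, 198 and 615 CPM in KO replicates 3, 4 and 6 and to 171 to 421 CPM in WT. Only KO replicate 6 thus lay above the WT range. Ly6g, the surface marker of mouse neutrophils, named after its values were seen, had 82, 42 and 68 counts in KO replicates 3, 4 and 6, and at most 8 counts in any other KO or WT library.

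Genes that regulate, process, store or inhibit granule proteins had values of both signs. Of 8 regulators tested, 4 were positive, beside 53.7% of all genes tested. Klf5, a Krüppel-like factor, was at 2.97 ± 0.76 (SE, edgeR, unadjusted p = 0.00188 and adjusted p = 0.195) with 6 of 7 KO libraries above all WT libraries, and Cebpa, which acts in hepatocytes as well as in granulocyte precursors, was at −0.72 ± 0.23 (unadjusted p = 0.00823 and adjusted p = 0.222) with 6 of 7 below. Gfi1 and Myb, transcription factors of granulocyte precursors named after their values were seen, did not pass the filter on low counts. They had 2.94 and 5.49 CPM in KO replicate 3 and at most 0.205 and 0.160 CPM in WT. Their levels in the other KO libraries are not given here. Cebpe and Spi1, the gene of PU.1, were at −0.16 ± 0.37 and 0.08 ± 0.33 (SE). These 2 were also named after their values were seen. KO replicates 3, 4 and 6 were the 3 highest libraries for 0 of the 8 regulators tested. Of 8 genes for protease processing and storage, 5 were positive, with Lyst, a regulator of lysosome and granule size, at −0.35 ± 0.19 and Ctsc, the peptidase that activates the granule serine proteases, at −0.63 ± 0.44 (SE). Of 9 inhibitors tested, 3 were positive with a median of −0.66. Serpina1a of this list is also among the hepatocyte genes used here, so the median does not describe neutrophils alone. Serpina1d of the antitrypsin family had −1.10 ± 0.39, and its near-identical copies make its counts uncertain.

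The signals and the killing machinery around neutrophils gave small values. Of 7 tested genes of the NADPH oxidase and of extracellular traps, 6 were positive, beside 53.7% of all genes tested. The median of the 7 was 0.25, led by p by Hvcn1 (0.47 ± 0.33) and Ncf1 (0.62 ± 0.50, SE). Of 13 chemokines, cytokines and growth factors that attract or expand neutrophils, 4 passed the filter. Cxcl12, the ligand that holds neutrophils in the marrow, was at −0.89 ± 0.47, Cxcl1 at −0.59 ± 0.56 and Il1b at 0.55 ± 0.40 (SE). Tnf had 0 counts in all 12 libraries. Of the receptors of S100a8 and S100a9, Tlr4 was at −0.02 ± 0.42 and Cd36 at −0.51 ± 0.43, and Ager had 0 counts. None of these genes was called or had an unadjusted p under 0.05 in edgeR's test.

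Markers of other blood cells moved with the granule genes in part. Megakaryocyte and platelet genes summed to 107, 49.1 and 45.5 CPM in KO replicates 3, 4 and 6, against 2.19 to 17.6 CPM in the other KO libraries and 14.7 to 30.2 CPM in WT. Gp5, a platelet glycoprotein, was at 2.81 ± 1.004 and Tubb1, the platelet tubulin, at 2.80 ± 1.11 (SE), 2 of 5 tested genes with an unadjusted p under 0.05. Of these 5, 4 were positive, with Clec1b, a receptor of platelets, at −0.62 ± 0.53 (SE). Among all genes tested, 53.7% were positive and 7.25% were higher at an unadjusted p under 0.05 in edgeR's test. When KO replicate 3 was left out, Gp5 no longer passed the filter, 0 of the 5 genes then tested had such a p, and the median was 0.92, against 1.67 over all libraries. Erythroid genes summed to 1638, 603 and 311 CPM in the same 3 libraries, against 28.6 to 526.2 CPM in the other KO libraries and 144 to 829.5 CPM in WT. Of 10 erythroid genes tested 9 were positive with a median of 0.58, and 2 had an unadjusted p under 0.05. Slc4a1, the anion exchanger of red cells, had the highest value of the list, 3.82 ± 1.40 (SE), while Klf1, an erythroid transcription factor, was at 0.12 ± 0.62 and Alas2, the erythroid enzyme of heme synthesis, at −0.11 ± 0.50 (SE). When KO replicate 3 was left out, 6 of the 10 were positive with a median of 0.08, and 0 had an unadjusted p under 0.05.

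Eosinophil, basophil and mast cell genes summed to 69.8, 47.04 and 21.96 CPM in KO replicates 3, 4 and 6, against 1.35 to 25.4 CPM in the other KO libraries and 10.3 to 18.5 CPM in WT. Monocyte and macrophage genes summed to 2083 CPM in KO replicate 6, to 303 and 446 CPM in KO replicates 3 and 4, to 230.3 to 399 CPM in the other KO libraries and to 476 to 1294 CPM in WT. The 3 libraries with high granule genes thus stood on both sides of the WT range for macrophage genes. Blood progenitor genes summed to 51.1 to 80.3 CPM in KO and 43.1 to 110.4 CPM in WT, T and NK cell genes to 5.43 to 35.2 CPM and 9.91 to 19.3 CPM, and B and plasma cell genes to 3.35 to 77.4 CPM and 23.04 to 78.4 CPM. Positive log2 fold changes were counted in 4 of 4 eosinophil, 8 of 14 macrophage, 3 of 8 progenitor, 9 of 9 T and NK, 2 of 4 B and plasma and 2 of 9 hepatocyte genes tested. Over all genes tested the share was 53.7%. Clec4f, a lectin of Kupffer cells, was at −2.47 ± 0.87 and Ttr, the hepatocyte transthyretin, at −0.60 ± 0.28 (SE), both with an unadjusted p under 0.05. In the progenitor, T and NK, and B and plasma lists, 0 genes had an unadjusted p under 0.05, and the defining B cell precursor gene Igll1 had 0 counts in all libraries. The part of other blood cells in the granule gene counts was not tested.

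**Figure D5:**
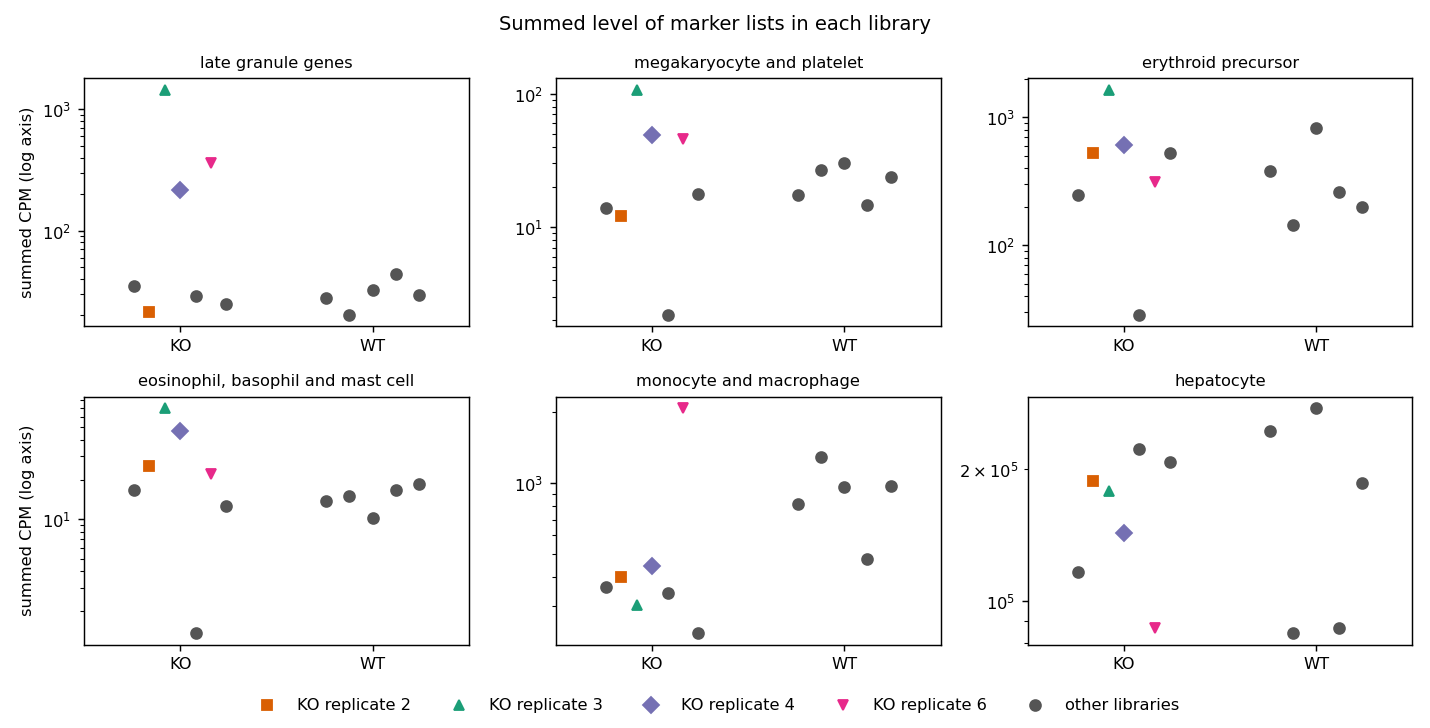
Summed CPM (log axis) of the late granule genes and of 5 marker lists in each library, KO left and WT right; each point is 1 library. KO replicate 3 is highest for the late granule, megakaryocyte, erythroid and eosinophil lists, and KO replicate 6 for the macrophage list.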

How the data were processed

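The authors deposited raw read counts per gene symbol, with no normalization. The submitters' processing notes name HISAT2 and mm10. The counting program, strand setting and annotation were not given in the sources used here. Reads of overlapping and near-identical genes therefore cannot be told apart. The genotype label grouped the libraries, and replicates were numbered in accession order. Whether each library is its own animal is not stated, and p-values then rest on a spread that may be technical. No pair of 31 within groups agreed within sampling noise (smallest chi-square per degree of freedom 54.5).

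Genes were kept by filterByExpr (minimum count 10, minimum total 15), which left 14666 with all 10 members among them, and tested with edgeR 4.0.16 in R 4.3.3 (TMM, robust quasi-likelihood F-test, Benjamini-Hochberg at 0.05). The SE was taken as log2 fold change divided by the root of F. DESeq2 1.42.0 and limma 3.58.1 were alternatives, as were other factors, filters and covariates and leaving out each library. DESeq2, the permutation test and the lists without KO replicate 3 were added after seeing the data; Klf1, Alas2 and Clec1b were named then too. Log2 CPM used a prior count of 2. On data simulated for KO against WT with 200 of 14468 genes changed, edgeR recovered 41 of 50 genes raised 4-fold and 19 of 50 raised 2-fold, with 1 false call. The simulation changed all KO libraries alike, and only genes with an average log2 CPM above 1. It therefore does not give the recovery of genes that, like most members, are high in only some KO libraries. Members and lists were chosen with earlier results of these data known. Beside the members, Pck1 and Xist, genes were named as up to 3 per list, by lowest p, and the 8 most like the early or late mean. Genes said to be named after their values were seen, and Chil3, Gfi1, Lcn2, Lyz2, Arg1 and Plppr3, fall outside this rule. A gene that this rule names is not reported here.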

Additional observations from a re-analysis of the deposited data

Results flagged for a closer look

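The share of early genes in the granule gene counts of KO replicate 2 was 59.3%, and stood apart from the other 6 KO libraries by 0.755 of the group's range, where 0.568 is the 95% critical value for 7 samples. Prtn3 made up 420 of the 575 early counts there. Elane in WT replicate 2 was at −2.02 log2 CPM, from 8 counts, and stood below the other 4 WT libraries by 0.723 of the range, where 0.71 is critical for 5 samples. Of 22 groups of values examined 2 stood apart, and chance gives about 1 in 20.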

How the results depend on the processing

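Genes higher and lower in KO numbered 0 and 0 in edgeR's test, with 1064 and 1091 at an unadjusted p under 0.05. DESeq2 called 249 and 241, and 9 members, and without KO replicate 3, a setting chosen after seeing the data, 131 and 133, and 0 members. Limma-voom called 938 and 1200 with sample weights and 1 and 4 without, and 0 members in both. The depth class as a covariate gave 1 and 2. The deeper libraries alone gave 0 and 2, and upper-quartile factors, no filter, a filter of 1 CPM in 5 libraries and the title range as a covariate 0 and 1 each. With 1 library left out the counts ran from 0 to 14 higher and from 0 to 51 lower genes, the highest without KO replicate 6, and edgeR called 0 members each time. RLE factors, the fit without robust estimation, the Xist class covariate and the shallower libraries alone gave 0 and 0. The cause of these differences was not tested.

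Prtn3 changed sign without KO replicate 3 (−0.54, against 0.98 without WT replicate 3), with the Xist class as a covariate (−0.29) and in the difference of mean log2 CPM (−0.059, and −0.478 without KO replicate 3). The other 9 members kept a positive value in all alternatives that tested them. Ctsg was not tested without KO replicate 1, 2, 3, 4 or 6, nor under the 1 CPM filter, which also removed Mmp8. No paired analysis was possible because the replicate numbers follow accession order and pair no samples. Depth limits Ctsg, Mmp8 and Elane most, since these have 1 to 31 counts in the WT libraries.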
